A study of Macaca fascicularis with 2 samples.

Results

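The CD8-bright CD4+ cytotoxic cells of this study were 163 DP (CD4+CD8+ double-positive) T cells, of 8830 cells kept and 8953 deposited (1.85%, exact binomial 95% interval 1.58 to 2.15%). They were chosen by their own RNA and antibody tag counts: at least 1 UMI of *CD3E* and at least 3 of *GZMB*, no fewer *GZMB* than *GZMK* UMIs, at most 1 of *FCER1G*, 0 of *CD79A* and *FOXP3*, and at least 144 CD4 and 1000 CD8α tag UMIs. A UMI (unique molecular identifier) stands for 1 captured RNA or tag molecule. All cells came from fresh peripheral blood of 1 untreated *Macaca fascicularis* (cynomolgus monkey) aged 10 years, taken with CD4 and then with CD8 magnetic beads, so no group has a replicate and no difference was tested across animals. Single-cell libraries of genes and of CD4 and CD8α tags were made from the same cells. All intervals below cover counting error only.

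CD4 and CD8 are the coreceptors with which T cells bind to MHC class II and class I molecules. Mature T cells usually keep one of them: helper T cells carry CD4 with CD40 ligand, and cytotoxic T cells carry CD8, often with the killer cell lectin-like receptor CD94 (*KLRD1*), perforin and granzymes. CD4+ T cells can also take on a cytotoxic programme, and some of these carry CD8α.

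Of the 1248 cells within the same gene limits, 181 were CD8-bright with a CD4 tag of at most 143 (CD4-low cells), 890 were CD4+ with a CD8 tag under 1000 (CD8-dim cells), and 14 were low for both. The CD8-bright CD4+ cells were 13.1% of all (11.2 to 15.1%). Their CD8 tag, with a median of 1937 UMIs (1006 to 22258), lay near that of the CD4-low cells (1899, 1001 to 5224) and above that of the CD8-dim cells (472, 106 to 993). Their CD4 tag had a median of 443 (144 to 2618), against 100 (30 to 141) in CD4-low and 349.5 (146 to 37243) in CD8-dim cells. These values were used to choose the cells and are given as a description. The CD4 tag counts nearest to the limit were 141 and 141 outside it and 144 and 148 inside it, and those of the CD8 tag were 992 and 993 outside and 1006 and 1007 inside. Within 25% of the limits there were 54 cells below and 20 above for the CD4 tag, and 110 below and 32 above for the CD8 tag, so neither limit lay in an empty stretch.

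**Figure D1:**
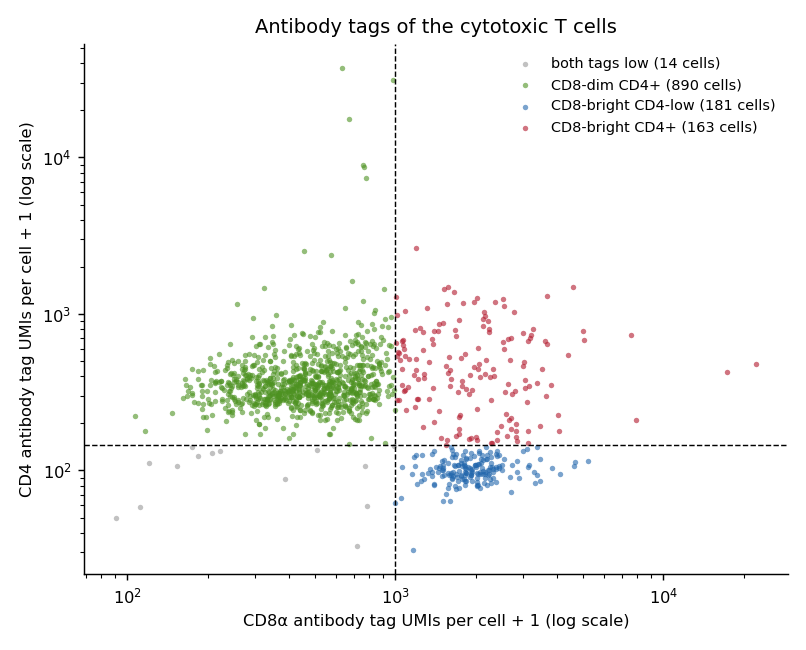
CD4 tag UMIs against CD8α tag UMIs per cell (plus 1, both axes on a log scale), 1 point per cell, for the 1248 cells within the gene limits. Dashed lines mark the tag limits of 144 and 1000 UMIs, and the 163 CD8-bright CD4+ cells at the upper right continue both into the 181 CD4-low cells below and into the 890 CD8-dim cells at the left.

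The CD8-bright CD4+ cells held more RNA per barcode than either comparison group. Their median was 5405 gene UMIs (interval of the median 4792 to 5889, range 2352 to 18939), against 3250 (3154 to 3393) in CD4-low cells and 3581.5 (3529 to 3639) in CD8-dim cells, which is 1.66 and 1.51 times as many. Their depths formed a lower and an upper peak with 6 cells between 4500 and 4999 UMIs. CD8-dim cells had a smaller rise, from 19 cells between 5500 and 5999 to 32 between 6000 and 6499 UMIs. At least 4500 UMIs were found in 95 of the 163 cells (58.3%, 50.3 to 65.9%), in 17 of the 181 CD4-low cells (9.39%, 5.57 to 14.6%) and in 177 of the 890 CD8-dim cells (19.9%, 17.3 to 22.7%). The sum of the other groups' medians is 6831.5 UMIs, and 47 cells reached it. A doublet score above the 94th percentile of all kept cells was given to 50 of the 163 cells (30.7%, 23.7 to 38.4%), to 5 CD4-low cells (2.76%) and to 89 CD8-dim cells (10.0%). Within the CD8-bright CD4+ cells, these scores fell to 48 of the 95 deeper and 2 of the 68 shallower cells. The median share of mitochondrial UMIs was 3.22% in both CD8-bright groups and 2.96% in CD8-dim cells. Because of the unequal depth, the groups of genes below are given for all CD8-bright CD4+ cells and then for the 68 shallow (under 4500 UMIs, median 3603.5) and 95 deep ones (median 6823). This line was set after the depths were seen, and what part barcodes holding more than 1 cell have in each result was not tested. Unless stated otherwise, shallow cells were compared with whole groups, which include the 17 CD4-low and 177 CD8-dim cells with at least 4500 UMIs.

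**Figure D2:**
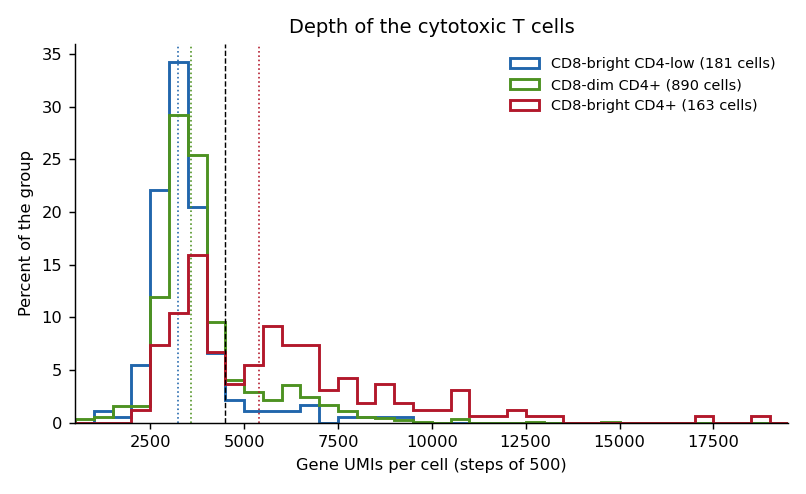
Gene UMIs per cell in steps of 500 (x axis) and the percent of each group in each step (y axis) for CD8-bright CD4+, CD4-low and CD8-dim cells. Dotted lines are the medians (5405, 3250 and 3581.5 UMIs) and the dashed line is the 4500 UMIs that part shallow from deep cells; the main peak of both comparison groups lies under the line, with a small rise of the CD8-dim cells above it, and the CD8-bright CD4+ cells have a peak on each side of it.

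Levels are CPM, that is UMIs per 1000000 gene UMIs of the group, with exact Poisson 95% intervals. Levels whose intervals overlap can still differ, so an overlap does not show that they are equal. Genes entered a comparison with 50 or more UMIs summed over its groups, if 10% or more of the cells in the group with the higher level held a UMI. Ratios are log2 with an exact interval for the split of the UMIs, and with no replicates genes are counted only by a ratio of at least 2-fold, with no test.

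The first question was what CD8-bright cells with the CD4 tag shared with those without it. *CD4* RNA was found in the CD8-bright CD4+ cells and not in the CD4-low cells, and 6 of 7 genes of naive and memory T cells were at least 2-fold higher. The granule genes and killer cell receptors measured had lower values, mostly within 2-fold. In the shallow cells the log2 medians of these 3 lists lay between -0.09 and 0.03. For the naive and memory list this covers 3 of the 7 genes, of which *CD7* was at least 2-fold lower than in all CD4-low cells. *PECAM1*, *TCF7*, *CCR7* and *LEF1* did not reach the limits there. With every group held under 4500 UMIs, *CD7* was within 2-fold (log2 -0.54). Of 3622 genes, 48 (1.33%) were at least 2-fold higher and 28 (0.773%) at least 2-fold lower in the CD8-bright CD4+ cells, and the median log2 ratio over all genes was -0.05. After thinning to equal depth the counts were 18 and 17. Thinned cells have fewer UMIs, so fewer genes can reach the limits, and the share of genes is not given. Against CD8-dim cells, of 4894 genes, 52 (1.06%) were at least 2-fold higher and 27 (0.552%) at least 2-fold lower, with a median of -0.02. The shallow cells alone were at least 2-fold above CD4-low cells in 6 (0.27%) and below them in 27 (1.22%) of 2220 genes, and above CD8-dim cells in 86 (1.95%) and below them in 183 (4.14%) of 4418 genes.

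The coreceptor RNAs lay between the comparison groups. *CD4* RNA was at 79.5 CPM (62.6 to 99.5) in CD8-bright CD4+ cells, at 0 of 635049 UMIs in CD4-low cells and at 164 CPM (151 to 178) in CD8-dim cells. It was thus 16.8-fold higher than in CD4-low cells, taking 3 UMIs over the group for the 0, and 2.06-fold lower than in CD8-dim cells (log2 -1.04, interval -1.41 to -0.70). The first value is not a lower limit, since the interval of the 0 reaches 5.81 CPM. *CD40LG*, which encodes CD40 ligand, followed the same order, with 45 CPM (32.5 to 60.6), 0 and 92.4 CPM (82.7 to 103). *CD8A* was at 663 CPM (612 to 717), 1.75-fold below the 1159 (1077 to 1246) of CD4-low cells and 3.19-fold above the 208 (193 to 223) of CD8-dim cells. The intervals of these levels do not overlap between any pair of the groups. *CD4* and *CD8A* RNA were not used to choose the cells, but the tags measure the same genes. *ZBTB7B*, a transcription factor of the helper lineage, had 22 CPM (13.6 to 33.6) against 14.2 (6.48 to 26.9) in CD4-low and 33.5 (27.7 to 40.1) in CD8-dim cells, with overlapping intervals. Of the 7 genes of the helper list, 5 were measured against CD8-dim cells: *CD4* and *CD40LG* were at least 2-fold lower, *CD28* higher, and *CD5* and *ZBTB7B* within 2-fold.

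The 4 marker genes of the label were checked in single cells. *GZMB*, at a median of 21 and a highest value of 71 UMIs per cell, was required. *CD8A* had a median of 4 and a highest value of 21 UMIs, and 145 of 163 cells (89.0%) had at least 1. *KLRD1* was found in 70 cells (42.9%) and *CD4* RNA in 52 (31.9%), each with a median of 0. After every cell was thinned to 2600 UMIs, which left out 2, 17 and 49 shallower cells, *CD4* RNA had a UMI in 24 of 161 CD8-bright CD4+ cells (14.9%), in 0 of 164 CD4-low cells, which allows up to 1.83% (3 cells), and in 293 of 841 CD8-dim cells (34.8%). The same shares for *CD8A* were 72.0%, 93.3% and 42.6%, and for *KLRD1* 30.4%, 53.7% and 9.87%. Background was read from 92 B cells without a T cell receptor RNA (median 4526 UMIs). After thinning, 1 had a UMI of *CD4*, 1 of *CD8A* and 1 of *KLRD1* (1.09% each), with *CD4* and *CD8A* in different cells. Without thinning, *CD8A* was found in 4 of them (4.35%). The label's markers were thus present in the group, while *CD4* and *KLRD1* RNA were each seen in a minority of its cells at this depth.

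Both coreceptor RNAs were found in 42 of 163 cells (25.8%, 19.2 to 33.2%), *CD8A* without *CD4* in 103, *CD4* without *CD8A* in 10 and neither in 8. Both were found in 0 of 181 CD4-low cells, in 219 of 890 CD8-dim cells (24.6%, 21.8 to 27.6%) and in 0 of 92 B cells. At equal depth the share was 17 of 161 cells (10.6%, 6.27 to 16.4%) against 122 of 841 CD8-dim cells (14.5%, 12.2 to 17.1%). The intervals overlap in both countings. Among shallow CD8-bright CD4+ cells 12 of 68 (17.6%, 9.46 to 28.8%) had both RNAs, and among deep ones 30 of 95 (31.6%, 22.4 to 41.9%).

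All 8 measured genes of the cytotoxic granule had lower values than in CD4-low cells, with a median log2 of -0.63 and 1 of 8 (*CTSW*) beyond 2-fold. In the shallow cells the median was -0.09 and 0 of 8 were beyond 2-fold. Against all CD8-dim cells, 8 of 9 were higher in the shallow cells (median 0.94), with *GZMA*, *PRF1*, *GNLY* and *CTSW* beyond 2-fold. CD8-dim cells under 4500 UMIs had more *PRF1* and *GNLY* (266 and 239 CPM) than those above (189 and 158 CPM). Over all CD8-bright CD4+ cells the median against CD8-dim cells was 0.18. The list held 15 genes, of which 12 had a symbol in the files. Perforin (*PRF1*), which opens the target membrane, was at 329 CPM (294 to 368) in CD8-bright CD4+ cells, 546 (490 to 607) in CD4-low cells and 242 (226 to 258) in CD8-dim cells. Granulysin (*GNLY*), a granule protein that damages membranes, was at 342 CPM (306 to 381), 628 (568 to 693) and 213 (198 to 229). The level lay between the comparison groups for both, and in the shallow cells *PRF1* (509.5 CPM, 423 to 609) and *GNLY* (501 CPM, 415 to 599.6) overlapped with CD4-low cells. *NKG7* (2023, 3187 and 2284 CPM) and *CST7* (1052, 1590 and 1189 CPM), both granule proteins, were instead lowest in the CD8-bright CD4+ cells as a whole. In the shallow cells they were at 2906 (2693 to 3131) and 1524 (1371 to 1690) CPM, above CD8-dim cells, and in the deep ones at 1732 (1637 to 1831) and 896 (828 to 968). Granzyme A (*GZMA*) was at 197 CPM (169 to 227), close to 238 (201 to 279) in CD4-low and above 111 (99.9 to 122) in CD8-dim cells. Cathepsin W (*CTSW*) had the highest ratio to CD8-dim cells of the 9 measured there, with 163 CPM (139 to 191), 334 (290 to 382) and 14.5 (10.8 to 19.0). It was 2.05-fold lower than in CD4-low and 11.3-fold higher than in CD8-dim cells. *GZMB*, used in the choice, had 3796, 5748 and 4390 CPM.

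Receptors of natural killer and killer T cells showed the same order against CD4-low cells. All 11 measured had lower values, 3 of them (*KLRD1*, *KLRF1* and *SLAMF7*) by at least 2-fold, and the list median was -0.66. *KLRD1* was at 171 CPM (146 to 200) in CD8-bright CD4+ cells, 376 (330 to 427) in CD4-low and 50.5 (43.3 to 58.4) in CD8-dim cells. Against CD8-dim cells *KLRD1* was the 1 receptor of 11 beyond 2-fold (log2 1.76, 1.45 to 2.08), and 7 of 11 had lower values. In the shallow cells, 9 receptors were measured against CD4-low cells (*CD244* and *CRTAM* did not reach the limits). Of these, 5 were above CD4-low cells, with a median of 0.03 and 0 beyond 2-fold, so the levels were close. Against all CD8-dim cells, deep ones included, the pattern turned. There 10 of 10 were above, with *KLRD1* and *NCR3*, an activating receptor, beyond 2-fold. *KLRD1* was at 274 CPM (211 to 349) in shallow and 138 (112 to 168) in deep cells. *KLRK1*, which encodes the activating receptor NKG2D, was at 124 CPM (103 to 149), 183 (151 to 219) and 112 (101 to 123). *KLRF1* was at 63.8 (48.8 to 81.9), 148 (120 to 181) and 67.2 (58.9 to 76.3) CPM. For both, the levels of CD8-bright CD4+ and CD8-dim cells overlap. In the 18 cells no deeper than the CD4-low median, *KLRF1* (log2 0.26) and *SLAMF7* (0.64) were on the higher side of CD4-low cells. Their UMIs and intervals in so few cells are not given, so the change of side is uncertain.

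None of the 8 measured transcription factors of effector cells was beyond 2-fold in either comparison, and 7 of 8 had lower values in each. In the shallow cells 4 of 8 were above CD4-low cells (median 0.05), with *TOX* beyond 2-fold, and 6 of 8 above CD8-dim cells (median 0.24). T-bet (*TBX21*), which drives the type 1 effector programme, was at 51.2 CPM (37.9 to 67.7) against 81.9 (61.2 to 107) and 79.4 (70.3 to 89.2). *ZEB2*, active in terminal effector cells, was at 182 (156 to 211) against 283 (244 to 328) and 226 (211 to 242). *ZNF683*, which encodes HOBIT and was below the count limit in both comparisons, had 16.7 CPM (9.56 to 27.2) against 45.7 (30.6 to 65.6) and 6.52 (4.13 to 9.78). The first pair had its lowest values in the CD8-bright CD4+ cells. Their intervals overlapped with those of CD4-low cells for *TBX21* and met those of CD8-dim cells only near 211 CPM for *ZEB2*. *ZNF683* lay between the groups, and its interval overlapped with that of CD8-dim cells only at the ends (9.56 against 9.78 CPM). In the shallow cells *TBX21* was at 92.6 CPM (58.1 to 140) and *ZEB2* at 269.5 (208 to 344), each overlapping with both comparison groups.

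Among surface and secreted molecules, the chemokine receptor *CXCR3* was the 1 of 7 measured surface genes beyond 2-fold against CD4-low cells. It was at 42.9 CPM (30.8 to 58.2) in CD8-bright CD4+ cells, 14.2 (6.48 to 26.9) in CD4-low and 56.7 (49.1 to 65.1) in CD8-dim cells. The fractalkine receptor *CX3CR1* was lowest in CD8-bright CD4+ cells, at 145 CPM (122 to 172) against 250 (213 to 292) and 261 (244 to 278); its shallow cells, at 240 (182 to 311), overlapped with both. The chemokine *CCL5* was at 1283 CPM (1212 to 1357), near the CD8-dim level of 1178 (1143 to 1215) and below the CD4-low level of 2390 (2272 to 2514). The deep cells were at 1017 CPM (944 to 1093), and the shallow ones at 2089 (1909 to 2281), 1.77-fold above CD8-dim cells and near CD4-low cells. Interferon gamma (*IFNG*) was at 37.6 CPM (26.4 to 52.1) against 59.8 (42.3 to 82.1) and 36.9 (30.8 to 43.8), with overlapping intervals. Of the checkpoints, *LAG3*, an inhibitory receptor that binds MHC class II, had 31 UMIs (32.4 CPM, 22 to 46.0), 34 in CD4-low cells (53.5 CPM, 37.1 to 74.8) and 7 in CD8-dim cells (1.98 CPM, 0.798 to 4.09). It lay under the count limit in the comparison with CD8-dim cells. *PDCD1*, which encodes PD-1, was at 75.3 CPM (58.9 to 94.8) and overlapped with the 69.3 (50.3 to 93.0) of CD4-low cells. Against CD8-dim cells 2 checkpoints were measured, *PDCD1* and *TIGIT*. Both had lower values within 2-fold (median log2 -0.43). For *CXCR3*, *IFNG*, *LAG3* and *PDCD1* the intervals of shallow and deep cells overlap.

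**Figure D3:**
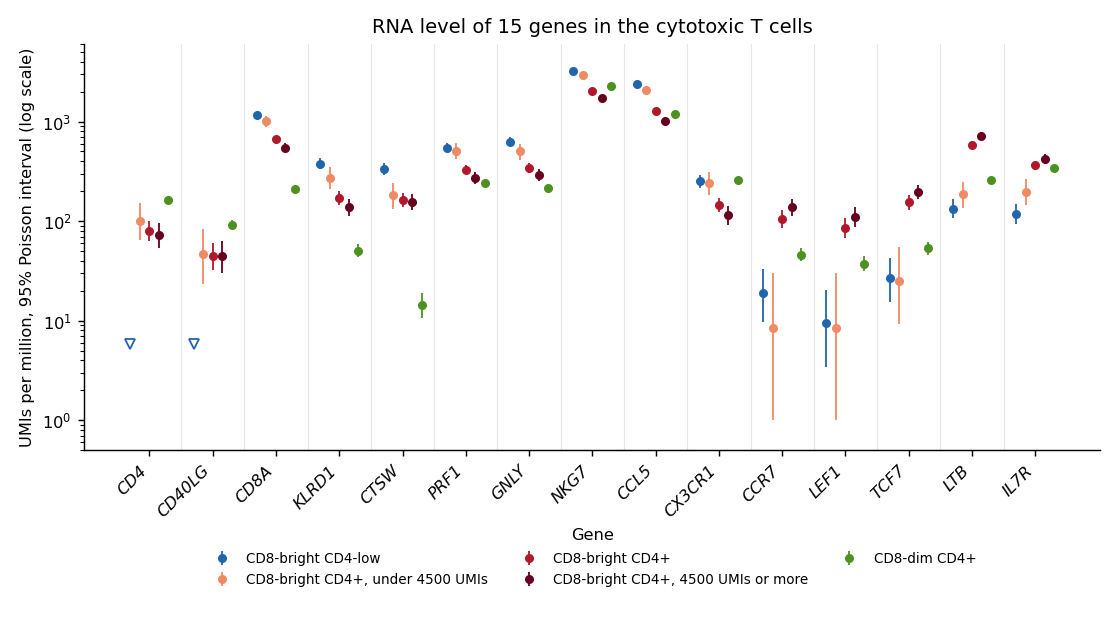
CPM (log scale) of 15 genes in CD4-low cells, shallow, all and deep CD8-bright CD4+ cells and CD8-dim cells, with exact Poisson 95% intervals and, for 0 UMIs, an open triangle at the upper end of the interval. *CD8A* and *KLRD1* go down from left to right within each gene, *CD4* is at 0 in CD4-low cells alone, and *CCR7* and *LEF1* are at 8.42 CPM in shallow and at 138 and 111 CPM in deep CD8-bright CD4+ cells.

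Most genes of the naive and memory list were higher in the CD8-bright CD4+ cells. Against CD4-low cells 6 of 7 genes were at least 2-fold higher (all but *CD27*; list median 1.62), and against CD8-dim cells 5 of 7 (median 1.19). *CCR7* encodes a receptor for entry into lymph nodes, and *LEF1* and *TCF7* transcription factors of naive and memory T cells. *CCR7* was at 106 CPM (86.0 to 128) against 18.9 (9.76 to 33.0) in CD4-low and 46.2 (39.4 to 53.9) in CD8-dim cells. *LEF1* was at 85.7 (68.2 to 106) against 9.45 (3.47 to 20.6) and 37.4 (31.3 to 44.4) and *TCF7* at 155 (131 to 182) against 26.8 (15.6 to 42.9) and 53.6 (46.2 to 61.8). These levels were above both comparison groups, unlike those of the coreceptor genes. *LTB*, a cytokine of lymphoid tissue organisation, was likewise highest, at 583 CPM (536 to 634) against 134 (107 to 166) and 259 (243 to 277). *CD28*, the costimulatory receptor, was at 29.3 (19.5 to 42.3) against 6.30 (1.72 to 16.1) and 13.3 (9.79 to 17.7).

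These RNAs lay in the deep cells. *CCR7* and *LEF1* each had 2 UMIs over all 68 shallow cells (8.42 CPM, 1.02 to 30.4), and 99 and 80 UMIs over the 95 deep cells (138 and 111 CPM). The log2 ratios of deep to shallow cells were 4.03 (2.14 to 7.10) and 3.72 (1.82 to 6.79). *CD28* had 0 and 28 UMIs. Of the 2387 genes compared between deep and shallow cells, 70 (2.93%) were at least 2-fold higher in deep cells and 30 (1.26%) at least 2-fold lower, and the naive and memory list again held 6 of 7 higher, with a median of 2.79 (all genes, -0.07). When only cells under 4500 UMIs were compared in every group, 7 genes were at least 2-fold higher than in CD4-low cells and 17 lower. The number of genes compared there is not given. *PECAM1* (log2 -0.17), *CD7* (-0.54) and *SPOCK2* (-0.43) had turned to the lower side, and *IL7R* (0.73), *LTB* (0.80) and *TCF7* (0.74) were within 2-fold.

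Deep cells of the comparison groups carried these RNAs too. The 5 naive markers *CCR7*, *CD7*, *LEF1*, *PECAM1* and *TCF7* summed to 96.9 CPM (61.4 to 145) in shallow and 786 CPM (722 to 853) in deep CD8-bright CD4+ cells. In CD4-low cells the sum was 92.9 (68.7 to 123) under 4500 UMIs and 522 (394 to 678) in the 17 cells above, and in CD8-dim cells 46.0 (37.8 to 55.4) and 651 (605 to 700.3). Depth thus moved with the sum in all 3 groups. At least 1 UMI of the 5 genes was found in 74 of 95 deep cells (77.9%) and 12 of 68 shallow cells (17.6%), and after thinning to 2600 UMIs in 65 of 95 (68.4%) and 8 of 66 (12.1%). After thinning, 0 of 92 B cells had a UMI of *LEF1* or of *TCF7*, which allows up to 3.26% each; *CCR7* and *PECAM1*, which B cells express, have no such background here. Deep cells were lower than shallow ones in all 8 measured granule genes (median log2 -0.59) and in all 8 measured killer receptors (median -0.90), of which *KLRB1* and *NCR3* were beyond 2-fold. *CX3CR1* was at 114 CPM (90.7 to 142) in deep cells, and *GZMB* at 3072 in deep and 5988 in shallow cells.

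**Figure D4:**
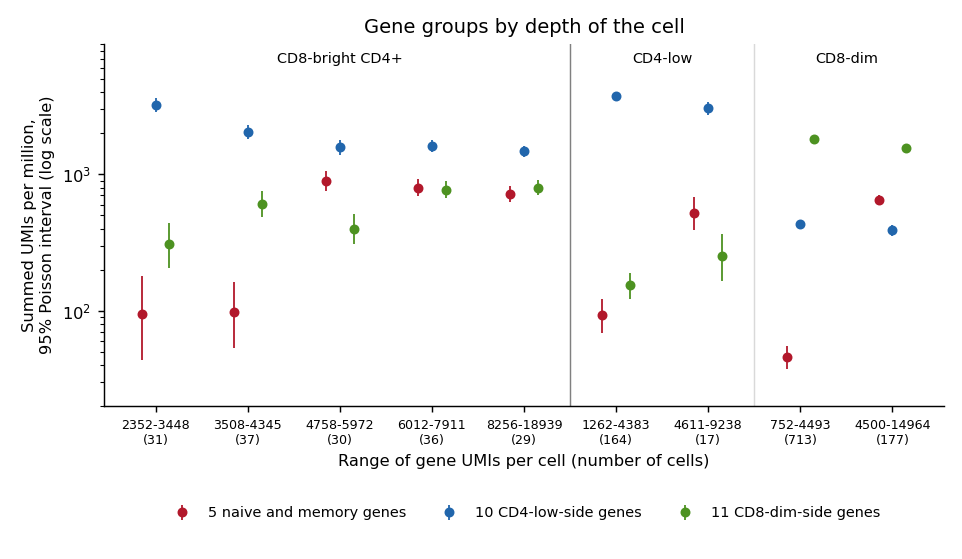
Summed CPM (log scale, exact Poisson 95% intervals) of the 5 naive markers, of 10 genes high in CD4-low cells and of 11 genes high in CD8-dim cells, by range of gene UMIs per cell. The 5 left ranges are CD8-bright CD4+ cells and the last 4 are CD4-low and CD8-dim cells under and over 4500 UMIs; the naive markers are at 95.4 and 97.8 CPM in the first 2 ranges and between 716 and 899.7 CPM in the next 3.

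A further question was where the CD8-bright CD4+ cells lay between the comparison groups. The axis was built from the comparison groups alone, with the genes that differed at least 4-fold between CD4-low and CD8-dim cells, so the separation of those groups is given by the choice. On the CD4-low side were 10 genes: *CD8A*, *KLRD1*, *CTSW*, *ZNF683*, *THY1*, *CD96*, *TRGC2*, *TRAV8-6*, *TRAV22* and 1 listed by identifier only. They summed to 3625 CPM in CD4-low, 1789 in CD8-bright CD4+ and 420 in CD8-dim cells, which places the CD8-bright CD4+ cells at 57.3% of the way to the CD8-dim cells (54.6 to 59.9%). On the CD8-dim side were 11 genes: *CD4*, *CD40LG*, *CXCR3*, *SLAMF1*, *CAPG*, *UPP1*, *COX7A1* and 4 listed by identifier only. They summed to 170, 647 and 1726 CPM, at 30.7% of the way (27.5 to 34.1%). The median place over the 11 genes was 36.5% (quartiles 26.1 to 58.1%). Of the 6087 UMIs of CD8-dim cells, 2598 came from 1 gene listed by identifier only. Of the 619 UMIs of CD8-bright CD4+ cells, 53 lay in 1 cell. The sum thus rests unevenly on genes and cells. The CD8-bright CD4+ cells lay between the groups for 10 of 10 and 10 of 11 genes, and nearer to CD8-dim cells on the first set than on the second. Genes picked for a wide gap make a place within it likely, so these counts are a description. The sets also hold *CD8A* and *CD4*, whose tags define the groups. *CD8A* gave 634 of the 1711 UMIs of CD8-bright CD4+ cells on the first set. Shallow cells were at 34.5% (28.0 to 40.7%) and 20.5% (15 to 26.7%), and deep cells at 64.8% (61.9 to 67.6%) and 34.0% (30.2 to 38.2%). With all groups held under 4500 UMIs the places were 37.0% and 20.2%. By summed UMIs the shallow cells were thus nearer than the deep ones to CD4-low cells on both sets. The median place over genes had this order on the first set (44.3% shallow, 69.1% deep). It did not on the second (37.1% shallow, 31.1% deep).

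Within the CD8-bright CD4+ cells the coreceptor RNAs went with the tags. The 26 cells with a CD4 tag of 144 to 199 had 0 UMIs of *CD4* and of *CD40LG* (each at most 36.6 CPM), 1291 CPM of *CD8A* (1079 to 1533) and 298 of *KLRD1* (201 to 425). Their 10 CD4-low-side genes, at 3497 CPM (3141 to 3882), overlapped with the 3625 CPM of CD4-low cells (3478 to 3776). These cells thus had tag counts just over the limit and no *CD4* RNA at this depth. Whether their CD4 tag counts were above background was not tested. From there *CD4* RNA went from 60.4 CPM (19.6 to 141) at a tag of 200 to 299 through 73.6 (44.3 to 115) and 96.0 (67.2 to 133) to 115 (65.5 to 186) at 1000 or more, with overlapping intervals between neighbours. *CD8A* went the other way, from 917 (723 to 1148) through 670 (574 to 777) and 528 (457 to 607) to 408 (309 to 529). Depth moved with the tag as well: the median was 3377 UMIs in the lowest range and 7243.5 in the highest.

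The same RNAs were followed over 4 ranges of the CD8 tag (1000 to 1299, 1300 to 1599, 1600 to 2399, and 2400 or more; 37, 21, 51 and 54 cells). *CD4* RNA was at 177 CPM (118 to 254) in the lowest range and then at 59.6 (24 to 123), 68.8 (42.0 to 106) and 52.0 (31.8 to 80.4). *CD40LG* was at 97.5 (55.7 to 158), 51.1 (18.7 to 111), 31.0 (14.2 to 58.8) and 31.2 (16.1 to 54.5). *CD8A* was at 463 (365 to 579), 604 (472 to 762), 644 (555 to 743) and 781 (695 to 874). The lowest range thus had the highest *CD4* and *CD40LG* and the lowest *CD8A* values, and the ranges above it overlap with each other. *KLRD1* had no single order, at 79.2 (42.2 to 135), 179 (111 to 273), 138 (98.4 to 187) and 234 (188 to 288). In the lowest range *CD4* and *CD40LG* overlap with the levels of all CD8-dim cells (164 and 92.4 CPM). *CD8A*, at 463 CPM, was above the 322 CPM (283 to 365) of the 164 CD8-dim cells with a tag of 700 to 999. Those intervals only touch, at 365 CPM. Depth moved with the CD8 tag too, with medians of 3932, 5594, 5749 and 6546.5 UMIs and 37.8% to 70.4% of cells at 4500 or more.

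**Figure D5:**
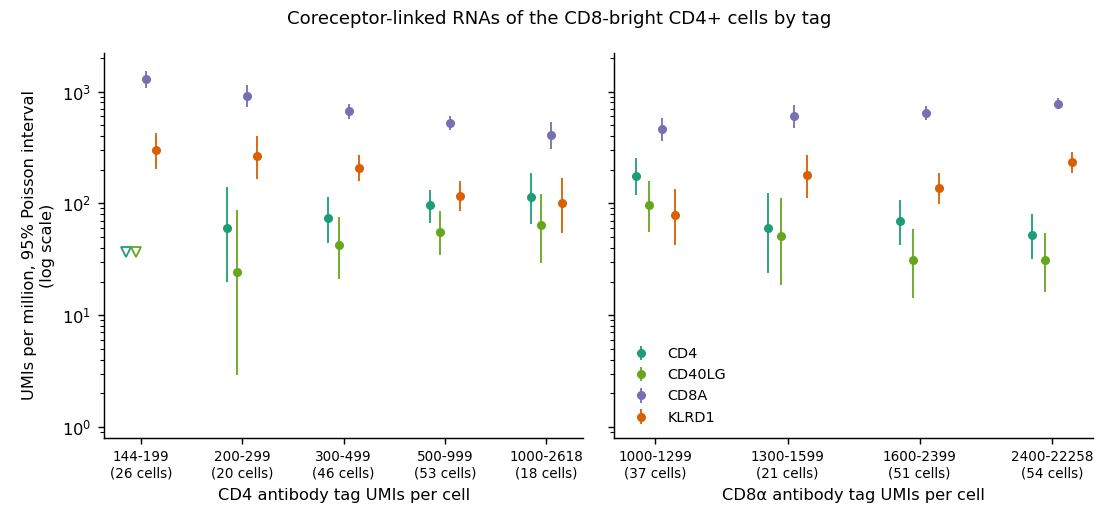
CPM (log scale, exact Poisson 95% intervals) of *CD4*, *CD40LG*, *CD8A* and *KLRD1* in CD8-bright CD4+ cells by range of the CD4 tag (left) and of the CD8α tag (right). Open triangles mark the upper end of the interval for 0 UMIs, which *CD4* and *CD40LG* had in the 26 cells with the lowest CD4 tag; *CD8A* goes down with the CD4 tag and up with the CD8 tag.

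The 68 shallow cells, which have the depth of the comparison groups, split by tag in the same way. The 22 with a CD4 tag under 200 had 0 *CD4* UMIs (at most 51.6 CPM) and 1413 CPM of *CD8A* (1151 to 1717). The 22 with a CD4 tag of at least 200 and a CD8 tag under 1300 had 191 CPM of *CD4* (107 to 315), 140 of *CD40LG* (69.9 to 251) and 739 of *CD8A* (561 to 955). In the 24 with a CD4 tag of at least 200 and a CD8 tag of at least 1300, *CD4* was at 103 CPM (47.0 to 195), *CD40LG* at 0 (at most 42.2) and *CD8A* at 926 (735 to 1151). The 12 shallow cells with both RNAs fell into the last 2 sets, with 8 and 4 cells. They had 3015 to 4322 gene UMIs, CD4 tags of 237 to 1490, CD8 tags of 1010 to 3636, 1 to 3 *CD4* and 1 to 5 *CD8A* UMIs and 6 to 49 *GZMB* UMIs. *KLRD1* was seen in 2 of them, *CD40LG* in 3, and a doublet score above the 94th percentile in 1. Both coreceptor RNAs were thus found in a small number of barcodes at the usual depth, 8 of 12 of them with a CD8 tag under 1300; their *GZMB* was required by the choice of cells.

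T cell receptor segments gave a further view of single barcodes, since a T cell usually carries 1 β chain and 1 or 2 α chains. Among 23 annotated TRAV segments, 2 or more with at least 2 UMIs each were found in 17 of 163 CD8-bright CD4+ cells (10.4%, 6.19 to 16.2%), in 4 of 181 CD4-low cells (2.21%, 0.605 to 5.56%) and in 17 of 890 CD8-dim cells (1.91%, 1.12 to 3.04%). Of the 17, 16 were deep (16 of 95, 16.8%, 9.94 to 25.9%) and 1 was shallow (1 of 68, 1.47%, 0.0372 to 7.92%). After thinning the counts were 3 of 161, 1 of 164 and 6 of 841. The higher count in CD8-bright CD4+ cells thus lay in the deep barcodes, and at equal depth too few remained for a comparison. Among 9 annotated TRBV segments, 2 were found together in 1, 0 and 1 cells. *TRAV22* was used by 28 CD8-bright CD4+ cells (17.2%), 29 CD4-low cells (16%) and 32 CD8-dim cells (3.60%), and *TRAV8-6* by 12 (7.36%), 18 (9.94%) and 4 (0.449%). In UMIs, *TRAV22* was at 125 CPM (104 to 150), 224 (188 to 264) and 36.3 (30.3 to 43.1). Any TRAV segment was itself seen more often in the CD8-bright groups, in 79 (48.5%), 81 (44.8%) and 176 (19.8%) cells. *TRGC2*, a constant segment of the γ chain, was at 100 CPM (81.3 to 123), 217 (183 to 257) and 46.8 (39.9 to 54.5). In the 18 cells no deeper than the CD4-low median its log2 ratio to CD4-low cells was 0.28, with no interval given.

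The comparison with CD8-dim cells asked what went with a bright CD8 tag in CD4+ cells. Among cells under 4500 UMIs (68 against 713 cells), 48 genes were at least 2-fold higher and 159 lower, against 52 and 27 over all cells. The number of genes compared among these cells is not given, so the 159 cannot be read as a share. Named genes with the highest ratios were *CTSW* (log2 3.50, 3.03 to 3.98), *TRAV8-6* (3.43, 2.53 to 4.42), *THY1*, a surface glycoprotein (2.24, 1.44 to 3.05), the Wnt-binding protein gene *SFRP5* (2.11, 1.26 to 2.98) and *BEX4* (1.83, 1.03 to 2.63). *CD8A* (1.67, 1.52 to 1.83) and *KLRD1* (1.76, 1.45 to 2.08) were among the first 10, as were *TRAV22*, *DBN1* and *RFLNB*. *SFRP5* had 0 UMIs in shallow and 27 in deep cells, and *RFLNB* 1 and 36, while *CTSW* (181 and 157 CPM) and *TRAV8-6* (37.9 and 44.5 CPM) overlapped between them. The lowest were *COPRS* (-1.44, -2.48 to -0.54), *USH1C* (-1.38, -2.10 to -0.72) and *CDIP1* (-1.31, -2.31 to -0.45), each with 11 to 21 UMIs in CD8-bright CD4+ cells. *SERPINA1*, which encodes α1-antitrypsin, was lower on more UMIs, at 167 CPM (142 to 195) against 358 (338 to 378), as was the T cell growth factor *IL7* at 29.3 (19.5 to 42.3) against 62.6 (54.7 to 71.5).

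Named genes with the highest ratios to CD4-low cells were *ITGA6*, an integrin chain (51 UMIs against 1, log2 5.08, 2.54 to 10.41), *CD4*, the actin-capping protein gene *CAPG* (3.32, 2.14 to 4.8), *LEF1* (3.18, 2.0 to 4.67), *ACTN1* (2.96, 1.51 to 4.90), *RCAN3*, *SPOCK2*, *DENND2D*, *TCF7* and *CCR7*. All but *CD4* had a higher value in deep than in shallow cells, with overlapping intervals for *ACTN1*. *CAPG* was at 21.1 CPM (6.84 to 49.1) in shallow and 118 (94.4 to 146) in deep cells, and *ITGA6* at 12.6 (2.61 to 36.9) and 66.8 (49.2 to 88.5). The lowest were *PTMS* (log2 -1.55, -2.43 to -0.72), *ZMPSTE24* (-1.55, -2.48 to -0.66), *TRAV8-6* (-1.48, -2.07 to -0.91), *THY1* (-1.47, -2.14 to -0.83) and *RGS3* (-1.39, -2.13 to -0.68). *CD96*, an adhesion receptor of T and natural killer cells, was at 39.7 CPM (28.1 to 54.5) against 102 (79.0 to 130). *PTMS*, *THY1* and *TRAV8-6* were above the CD8-dim level at the same time, with 19.9 against 2.83, 33.5 against 7.09 and 42.9 against 3.97 CPM.

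Activation and cycling genes were all above the CD4-low level among the 5 measured, none by 2-fold, and *CD38*, an activation marker, was 2-fold above CD8-dim cells (52.3 CPM, 38.8 to 68.9, against 24.4, 19.5 to 30.1). *STMN1*, expressed in dividing cells, was at 362 (325 to 402), 186 (154 to 223) and 224 (209 to 240), with up to 75 UMIs in 1 cell. The proliferation marker *MKI67* had 26 UMIs over the 163 cells, up to 15 of them in 1 cell. *CD38*, *STMN1* and *MKI67* were at 21.1, 198 and 8.42 CPM in shallow and 62.6, 416 and 33.4 CPM in deep cells.

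B cell, monocyte, platelet and red cell markers were sparse. Of the 6 B cell markers 4 were at 0, with 9 UMIs in all (9.41 CPM, 4.3 to 17.9; 3.15 in CD4-low and 3.12 in CD8-dim cells), all in deep cells. Of the 6 monocyte markers 4 were at 0, with 14 UMIs (14.6 CPM, against 7.87 and 13.3). The 3 platelet markers were at 0, and *HBB* had 1 UMI. Of the 5 natural killer markers *NCR1* and *NCAM1* were at 0, and the list summed to 88.9 CPM (71.0 to 110), against 159 (130 to 193) in CD4-low and 82.5 (73.3 to 92.5) in CD8-dim cells. A UMI of that list, which holds genes that T cells express too, was found in 53 of 163 cells (32.5%; 18.6% after thinning, against 33.5% and 20.5%). *FOXP3* was 0 by choice, and the other regulatory markers *IL2RA*, *CTLA4* and *IKZF2* had 18 UMIs in all. The T cell receptor chain *TRAC* was at 378 CPM (340 to 420), 457 (406 to 512) and 374 (354 to 395), and *CD3D* at 1245, 1422 and 1338 CPM, so the T cell identity of the 3 groups was carried by RNAs that the choice did not use.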

How the data were processed

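The deposited values are raw UMI counts per cell of each gene and tag, made by the authors with Cell Ranger 3.1.0 (STAR 2.5.1b) on the build Macaca_fascicularis_5.0 and not yet filtered in Seurat 3.1.3 or normalized. Cells with 200 to 4000 genes and at most 20% of UMIs from 13 mitochondrial genes were kept (8830 of 8953, median 3145 gene UMIs). The members, gene lists and limits were chosen with earlier results of these data known. With 1 animal no test was made: UMIs were summed per group, ratios had binomial-split 95% intervals, a group at 0 was set to 3 UMIs, and shares had exact (Clopper-Pearson) intervals. The percent that a share of 0 is said to allow is instead 3 cells of the group. The exact upper end is higher, such as 2.22% for 0 of 164 cells. Named genes were the marker and programme lists and the 10 named genes with the highest and lowest ratio per comparison, without those used in the choice. Of the listed symbols, 17 (such as *CD8B*, *TRDC* and *GZMH*) were not analysed here, and some further genes are not reported here, in lists and sums too. Without strand or multi-mapping details, related segments and paralogs are uncertain. Scrublet (scanpy 1.11.5, expected rate 6%) marked 0 cells at its automatic threshold, so no cell was removed and scores are given as percentiles. Python 3.11.15, numpy 2.4.6 and scipy 1.17.1 were used. Intervals, counts and thinning were tested on simulated data.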

Additional observations from a re-analysis of the deposited data

How the results depend on the processing

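With 1 animal, all values describe 1 pair of libraries, and depth limits each gene with few UMIs. No paired analysis was possible because no group has a replicate. The line at 4500 UMIs was chosen after seeing the data; the cause of the shifts below was not tested.

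Genes at least 2-fold higher and lower than in CD4-low cells (48 and 28) became 171 and 232 at 1.5-fold, 221 and 169 with at least 20 UMIs and no limit on the share of cells, 18 and 17 with thinned cells, 20 and 17 without the highest doublet scores, and 7 and 17 under 4500 UMIs, while with cells no deeper than the CD4-low median (18 against 91 cells) 9 were higher. Against CD8-dim cells (52 and 27) they became 217 and 191 at 1.5-fold and 206 and 244 with at least 20 UMIs, and those lower became 41 with thinned cells, 289 with cells no deeper than the CD8-dim median (33 against 445 cells) and 159 under 4500 UMIs. The other scalings and limits kept these counts within 1.5 times. The number of genes that enter can change with the setting and is not given here, so these counts are not shares.

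The places on the CD4-low-side and CD8-dim-side genes (57.3% and 30.7%) were 52.2% and 26.0% as a mean over cells, 50.5% and 34.8% without the highest doublet scores, 66.3% and 36.5% with a CD4 tag of at least 300, 37.0% and 20.2% under 4500 UMIs and 16.3% and 9.56% with cells no deeper than the CD4-low median. The share with both coreceptor RNAs (25.8%; CD8-dim 24.6%) was 10.6% (14.5%) thinned and 17.6% (20.9%) under 4500 UMIs, and 33.3% with a CD4 tag of at least 300. Several TRAV segments (10.4%; CD8-dim 1.91%) were found in 1.86% (0.713%) thinned, 4.42% (0.874%) without the highest doublet scores and 1.47% (0.701%) under 4500 UMIs. For TRBV the share (0.613%; CD8-dim 0.112%) became 0% of CD8-bright CD4+ cells in all 3, and 0% of CD8-dim cells in the last 2.

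A CD4 tag of at least 300 gave median depths of 6087 (CD8-bright CD4+) and 3753 UMIs (CD8-dim). A CD8 tag of at least 2000 left 78 CD8-bright CD4+ and 79 CD4-low cells, and 68 CD8-bright CD4+ cells were under 4500 UMIs.

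With cells no deeper than the CD4-low median, ratios to CD4-low cells changed sign for *IL7R* (-0.049), *KLRF1* (0.26), *PAM* (0.83), *SLAMF7* (0.64), *TRGC2* (0.28) and *ZMPSTE24* (0.021), and with cells no deeper than the CD8-dim median so did that of *CDIP1* to CD8-dim cells (0.43). These rest on 18 and 33 CD8-bright CD4+ cells, with no intervals given. Under 4500 UMIs ratios to CD4-low cells changed sign for *CD7* (-0.54), *PECAM1* (-0.17) and *SPOCK2* (-0.43, and -0.46 against CD8-dim cells). Of 1959 ratios of single genes under all alternatives, 1601 stayed within their counting interval and 347 moved without a change of sign in a gene beyond 2-fold.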
